A study of Mus musculus with 8 samples.

Results

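The genes described here are 50 mouse genes of ribosome biogenesis and RNA polymerase I (Pol I), chosen by name from a list of nucleolar ribosome assembly factors and Pol I genes. All 50 were found among the 43629 genes of the deposited count table, and all 50 passed the filter on low counts that left 12413 genes to be tested. The samples were 2 lymphoma cell lines, #1.1 and #1.2, from the Eμ-Myc model on the C57BL/6 strain, both at early passage. Eμ-Myc mice carry a Myc transgene driven by the immunoglobulin heavy chain enhancer and develop B-lineage lymphomas, so both lines and all groups carry that transgene. Each line was kept for 2 h with 250 nM JQ1, an inhibitor of the BET bromodomain proteins, or with its vehicle DMSO. This gave 4 groups of 2 libraries each, 8 in all: line 1.1 with DMSO, line 1.1 with JQ1, line 1.2 with DMSO and line 1.2 with JQ1. Each line is a single lymphoma line, and the labels do not say whether the 2 libraries of a group came from separate cultures. The spread behind the p-values is thus that of library pairs, and it may be technical only.

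Ribosomes are made in the nucleolus. There Pol I, brought to the ribosomal RNA genes by the initiation factor Rrn3 and the DNA-bending factor Ubtf, transcribes a long precursor RNA. Small nucleolar ribonucleoproteins (snoRNPs) modify this precursor, the box C/D class by methylation and the box H/ACA class by pseudouridylation, and a series of assembly factors cleave it and fold it into the small and the large subunit. Many of these genes are classical targets of MYC, which binds the sequence CACGTG, the E-box, as a dimer with MAX.

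The E-box is shown in 3 promoters because it was present in members that moved in opposite directions after JQ1. RefSeq promoter windows, from 250 bases before to 50 bases after a gene's start on GRCm38.p6, were at hand for 43 of the 50 members; Npm1, Fbl, Bop1, Rrp12, Rrs1, Gnl2 and Wdr36 had none. CACGTG, which reads the same on both strands, was in the window of 9 of these 43 members, 20.9%, against 12.4% of the 8529 tested genes with a window and 8.09% of all 27025 genes with one. The 9 members are Imp4, Nop2, Utp20, Pes1, Tsr1, Nle1, Utp18, Rrn3 and Wdr43. The stretches below run 5′ to 3′ on the plus strand, from 250 bases before the start to its first 30 bases, with the E-box in capitals.
Wdr43 (chr17:71615965-71616244): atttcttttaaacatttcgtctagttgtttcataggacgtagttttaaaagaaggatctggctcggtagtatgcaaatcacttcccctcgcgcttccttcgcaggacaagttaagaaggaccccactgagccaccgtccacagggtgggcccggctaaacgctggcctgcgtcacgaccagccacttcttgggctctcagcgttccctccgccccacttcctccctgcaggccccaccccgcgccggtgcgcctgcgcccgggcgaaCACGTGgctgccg
Imp4 (chr1:34439579-34439858): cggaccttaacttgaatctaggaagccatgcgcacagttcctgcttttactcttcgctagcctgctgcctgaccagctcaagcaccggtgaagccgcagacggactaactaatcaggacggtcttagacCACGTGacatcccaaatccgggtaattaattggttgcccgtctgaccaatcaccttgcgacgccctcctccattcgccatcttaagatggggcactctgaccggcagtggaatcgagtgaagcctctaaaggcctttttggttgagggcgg
Rrn3 (chr16:13780449-13780728): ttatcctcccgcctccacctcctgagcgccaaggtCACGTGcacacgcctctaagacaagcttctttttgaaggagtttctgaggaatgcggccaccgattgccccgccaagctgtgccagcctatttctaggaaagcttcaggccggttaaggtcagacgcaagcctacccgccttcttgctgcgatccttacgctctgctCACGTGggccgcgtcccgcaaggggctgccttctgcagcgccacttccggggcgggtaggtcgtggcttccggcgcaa
Counted from the RefSeq start, the E-box of Wdr43 began at base 18 of the transcribed stretch, that of Imp4 121 bases before the start, and the pair in Rrn3 215 and 48 bases before it. The GENCODE annotation places the start of Wdr43 at base 71615895 of chr17. By that start the whole Wdr43 stretch lies inside the gene, so its E-box is at the promoter only by RefSeq. Wdr43 was lower after JQ1, whereas Imp4 and Rrn3 were higher. Of all genes tested, 30.7% rose and 31.3% fell after JQ1. Of the 9 members with CACGTG, 2 rose (22.2%), 3 fell (33.3%) and 4 had no call. Of the 34 with a window without it, 5 rose (14.7%), 16 fell (47.1%) and 13 had no call. These counts describe letters in a window and were not tested.

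The libraries held 10347453 to 13049877 reads assigned to genes, and the members took 1.896 to 2.152% of them, with at least 519 reads for each member in each library. The share of reads that the counting placed in no feature was 12.33 to 13.12% with DMSO and 14 to 14.4% with JQ1, without overlap, and its part in the results was not tested. Of the replicate pairs, the DMSO pair of line 1.1 differed most: its chi-square per degree of freedom over genes was 4.091, against 1.362 to 2.136 in the other pairs. Its replicate 1 held more of the members' reads, with a summed level of 21330 CPM (read counts scaled to a common library size after TMM normalization) against 19960 in replicate 2. Gm42418, an annotated RNA that overlaps a copy of the ribosomal RNA unit, stood at 1296 and 2644 CPM with JQ1 in line 1.2 and at 341 to 977 CPM in the other 6 libraries; its part in the results was not tested beyond the fits with its level as a covariate. Myc itself stood at 1357 to 1640 CPM with DMSO and 2131 to 2355 CPM with JQ1, and the counts do not separate the transgene from the mouse's own gene. The 8 B cell markers looked at were all detected; their summed level was 1996 to 2189 CPM with DMSO and 1301 to 1481 CPM with JQ1, and its part in the results was not tested. Of the T and NK cell markers 6 of 9 were at 0 in all libraries, and their sum stayed below 1 CPM, at 0.4968 to 0.9929 with DMSO and 0.08262 to 0.2641 with JQ1. Myeloid markers summed to 0.6206 to 2.257 CPM with 4 of 9 at 0, stromal and endothelial markers to at most 1.535 CPM with 7 of 8 at 0, and erythroid markers to 0.1823 to 0.532 CPM with 3 of 6 at 0.

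The first question was how JQ1 moved these genes, averaged over both lines. The members split: 11 rose and 20 fell, and 19 did not pass the threshold, an adjusted p of 0.05 by edgeR's quasi-likelihood F test with Benjamini-Hochberg adjustment over the 12413 genes. Among all genes tested 30.7% rose and 31.3% fell, so the members' 22% that rose lay below that share and their 40% that fell above it. The changes were small. The median change of the members was -0.05 on the log2 scale and the median size 0.14, against 0.0036 and 0.25 over all genes tested. The members' median was smaller than the SD of the members' median log2 level between replicate libraries, 0.06, and it was -0.01 without replicate 1 of the line 1.1 DMSO pair, -0.08 without replicate 2 and 0.02 with the Gm42418 level as a covariate, so its sign is not settled. A single member, Ppan, was called with a change of 1.5-fold or more, against 20.1% of all genes. The members are abundant, and abundant genes moved less here: over the 4178 tested genes with at least the level of the lowest member, the median change was 0.04, the median size 0.17, 40.9% rose and 30.3% fell. In bulk RNA, fewer cells of a type and less RNA per cell cannot be told apart, and CPM values show each gene's share of a library, not its amount per cell. Scaling by library totals alone moved the split to 8 higher and 27 lower among the members, and from 3809 higher and 3883 lower to 3229 and 4349 among all genes.

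**Figure D1:**
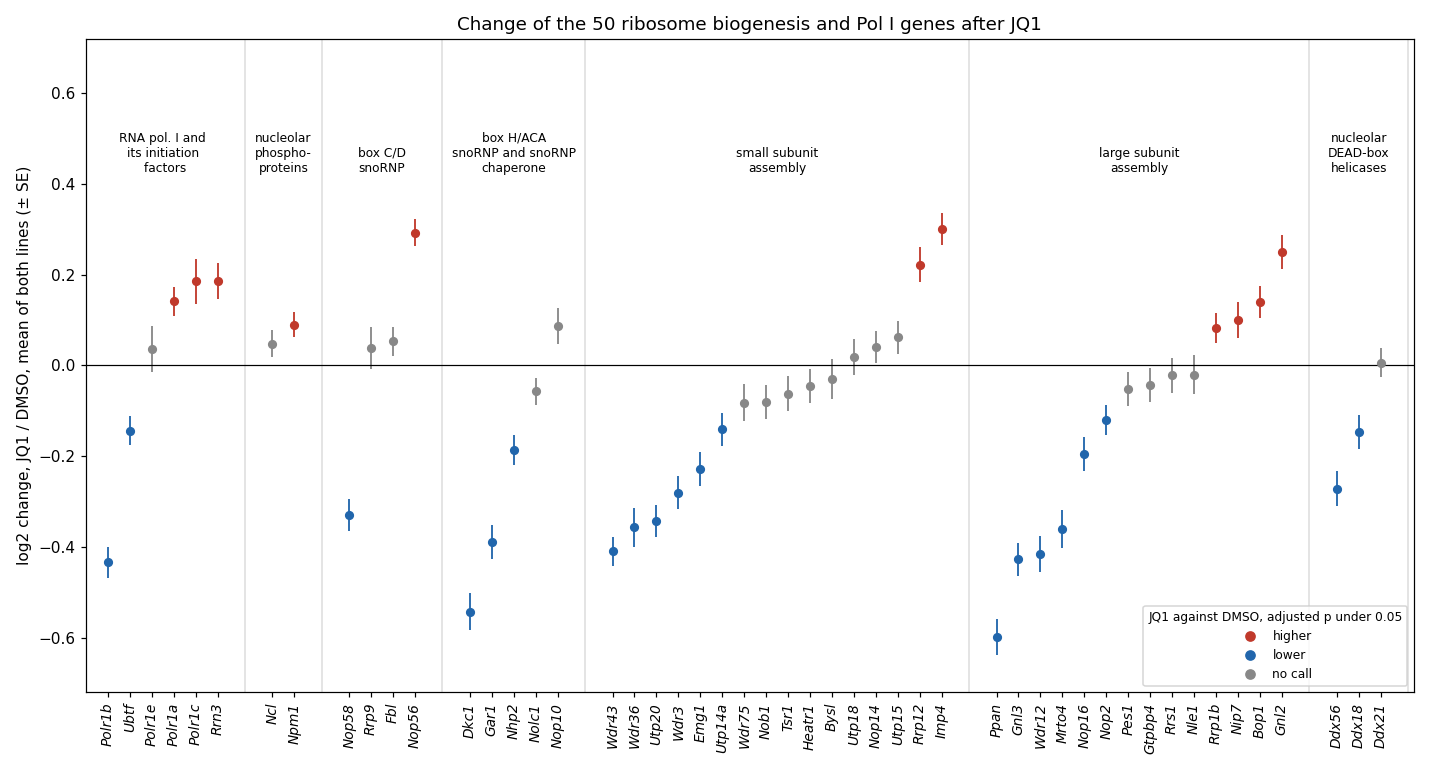
Log2 change after JQ1 against DMSO, averaged over both lines, for each of the 50 members, grouped by role (x axis, genes; y axis, log2 change; bars, standard error of the edgeR fit with 2 libraries per group). Every role group but the 2 nucleolar phosphoproteins holds members that fell (blue), and the box C/D, Pol I, small subunit and large subunit groups hold members that rose (red) as well.

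The library values showed the same split without a model. In 19 members all 4 JQ1 libraries lay below all 4 DMSO libraries, against 24.8% of all genes tested, and in 8 all 4 lay above, against 23.7%. The other 23 overlapped. The spread of the members' changes was close to that of 103 further ribosome biogenesis and Pol I genes, whose distribution is drawn with theirs.

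**Figure D2:**
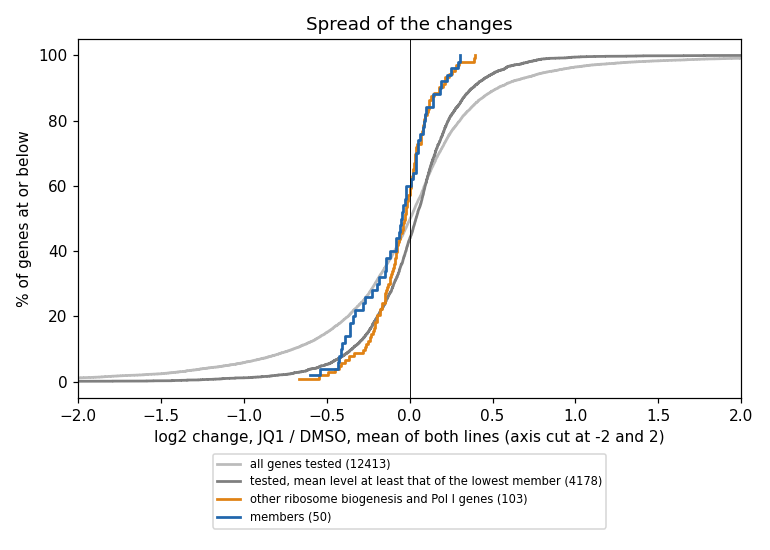
Cumulative share of genes (y axis, percent) at or below each log2 change after JQ1 (x axis, mean of both lines, shown from -2 to 2) for the members, the 103 other genes of the pathway, all 12413 tested genes and the 4178 of them at or above the lowest member's level. The members run from -0.60 to 0.30, and the curve over all tested genes extends beyond both ends of that range.

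The Pol I genes moved in both directions. Of 6 members, Polr1a, Polr1c and Rrn3 rose, Polr1b and Ubtf fell, and Polr1e had no call. Polr1b (chr2:129100995-129126594, plus strand, GRCm38), the second largest subunit and part of the catalytic centre, stood at 210.2 and 202 CPM with DMSO and 149.8 and 148 CPM with JQ1 in line 1.1. In line 1.2 it stood at 198 and 199 CPM with DMSO and 150.1 and 151 CPM with JQ1. The groups did not overlap in either line, and the log2 change was -0.43 ± 0.03 (SE; edgeR adjusted p = 5.97e-11). Polr1a, the largest subunit, which completes the catalytic centre, had 266 and 274 CPM with DMSO and 279.3 and 279 CPM with JQ1 in line 1.1, and 255 and 253 against 296 and 302 CPM in line 1.2. Its JQ1 libraries were all above its DMSO libraries, by little in line 1.1 and by more in line 1.2, and the averaged change was 0.14 ± 0.03 (edgeR adjusted p = 0.00043).

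Rrn3, which links Pol I to the promoter, stood at 119 and 108 CPM with DMSO and 125 and 126 CPM with JQ1 in line 1.1, and at 102 and 108 against 121 and 125 CPM in line 1.2. No JQ1 library reached as low as a DMSO library, and the log2 change was 0.19 ± 0.04 (edgeR adjusted p = 0.000262). Ubtf went the other way, from 427 and 421 to 382 and 384 CPM in line 1.1 and from 424 and 419.6 to 391 and 374 CPM in line 1.2, a log2 change of -0.14 ± 0.03 (edgeR adjusted p = 0.00031). Polr1c, a subunit that Pol I shares with Pol III, had 68 and 60.9 CPM with DMSO and 73.5 and 72.8 CPM with JQ1 in line 1.1, and 72.2 and 65 against 82.5 and 74.3 CPM in line 1.2. It rose by 0.19 ± 0.05 on the log2 scale (edgeR adjusted p = 0.0022), with all JQ1 libraries above all DMSO libraries by a narrow margin. Polr1e, a Pol I-specific subunit, had 57.5 and 54.0 CPM against 54.0 and 51.2 CPM in line 1.1 and 46.9 and 48.9 against 50.4 and 56.4 CPM in line 1.2. Its groups overlapped in line 1.1 and not in line 1.2, its averaged change was 0.04 ± 0.05, and the sign of that change was not the same under every scaling tried.

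**Figure D3:**
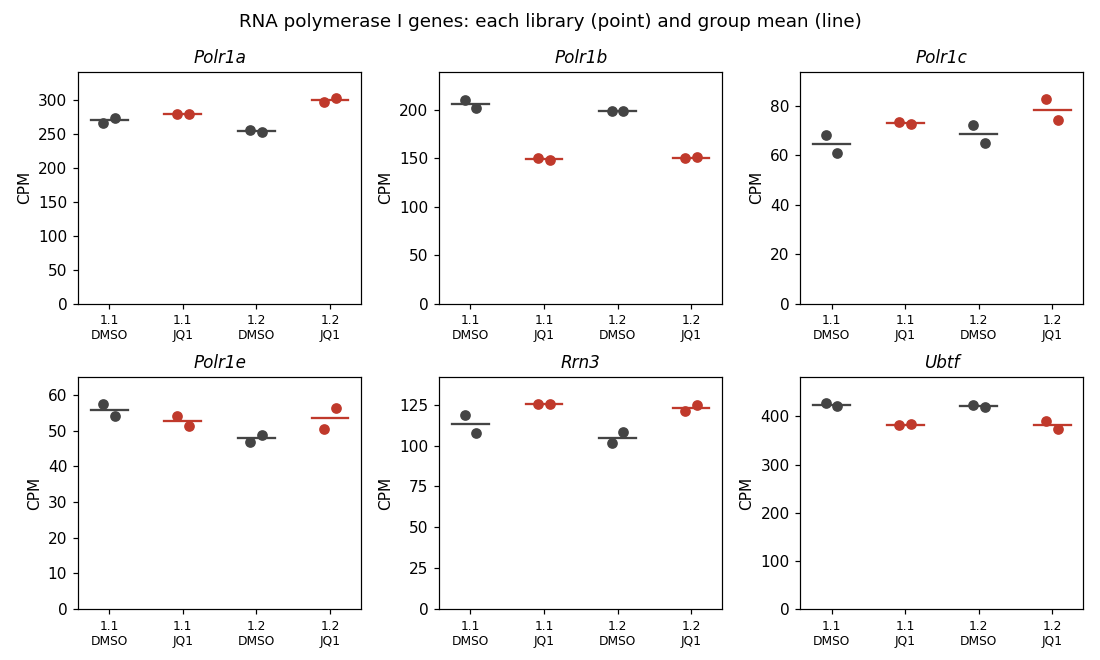
Level (y axis, CPM, from 0) of the 6 Pol I members in each of the 8 libraries (points) with the mean of each group of 2 (lines), DMSO in grey and JQ1 in red. Polr1b drops to about the same level in both lines, Ubtf is lower by a smaller step, and Polr1a, Polr1c and Rrn3 are higher with JQ1.

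Of 10 other Pol I genes, 5 rose (50%), 3 fell (30%) and 2 had no call, against 30.7% and 31.3% of all genes tested. Their median log2 change was 0.10.

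Nucleolin and nucleophosmin, the abundant nucleolar phosphoproteins, were the members with the highest level per length. By mean level per kb of annotated exon, Npm1 had 1702 CPM per kb, Ncl 448, Ddx21 183.9 and Nhp2 183.6. Per kb of the longest coding transcript the order was Npm1 with 2778, Ncl with 556, Nop56 with 380.8 and Fbl with 303, so only the first 2 places were the same on both scales. Npm1 has 4 near-identical pseudogene copies in the annotation, and how reads were shared among them is uncertain. Its level was 4589 and 4373 CPM with DMSO and 4780.0 and 4829 CPM with JQ1 in line 1.1, and 4363 and 4251 against 4543 and 4561 CPM in line 1.2. Within each line both JQ1 libraries were above both DMSO libraries, but the averaged change of 0.09 ± 0.03 (edgeR adjusted p = 0.00664) was lost with library totals as the scale (adjusted p = 0.131). Ncl had 4957 and 4502 CPM with DMSO and 4827 and 4886 CPM with JQ1 in line 1.1, and 4239 and 4255 against 4392 and 4451 CPM in line 1.2. The line 1.1 DMSO pair enclosed the JQ1 pair, and the averaged change of 0.05 ± 0.03 was no call (edgeR adjusted p = 0.171).

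The snoRNP proteins did not move as a block either. In the box C/D group Nop56 rose, Nop58 fell, and fibrillarin (Fbl), the methyltransferase, and Rrp9, a U3-specific protein, had no call. Nop56 (chr2:130274430-130279313, plus strand), a core scaffold protein, stood at 661 and 637 CPM with DMSO and 814 and 797 CPM with JQ1 in line 1.1, and at 633 and 639.5 against 771 and 766 CPM in line 1.2. Every JQ1 library exceeded every DMSO library, with a log2 change of 0.29 ± 0.03 (edgeR adjusted p = 8.71e-09). The annotation lists 3 near-identical copies of Nop56, which leaves its count uncertain to that extent. Nop58, the partner of Nop56 in the same particle, had 550.4 and 510.1 CPM with DMSO and 418 and 429 CPM with JQ1 in line 1.1, and 489 and 493 against 370.2 and 409 CPM in line 1.2. It was lower in all JQ1 libraries, by 0.33 ± 0.04 on the log2 scale (a change of -0.33; edgeR adjusted p = 2e-08). Fbl changed by 0.05 ± 0.03 and Rrp9 by 0.04 ± 0.05, without a call.

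In the group of box H/ACA proteins with the snoRNP chaperone Nolc1, 3 of 5 members fell and none rose. Of all genes tested 31.3% fell and 30.7% rose. Dkc1 (chrX:75095854-75109777, plus strand), the pseudouridine synthase dyskerin, had 438 and 381 CPM with DMSO and 275 and 301 CPM with JQ1 in line 1.1, and 390.0 and 402 against 264 and 269 CPM in line 1.2. The groups were far apart in both lines, and the log2 change was -0.54 ± 0.04 (edgeR adjusted p = 2.23e-11). Gar1, a core protein of the particle, had 113 and 112 CPM with DMSO and 88.3 and 87.8 CPM with JQ1 in line 1.1, and 99.7 and 101 against 75.3 and 74.2 CPM in line 1.2, a log2 change of -0.39 ± 0.04 (edgeR adjusted p = 3.74e-09). Nhp2, another core protein, went from 229 and 232 to 194 and 197 CPM in line 1.1 and from 224 and 212 to 197 and 199 CPM in line 1.2. Its change of -0.19 ± 0.03 (edgeR adjusted p = 3.35e-05) left no overlap between the groups. Nop10, the smallest core protein, was the exception in this particle, with 207 and 180.1 CPM with DMSO and 204 and 211 CPM with JQ1 in line 1.1 and 193 and 191 against 197 and 208 CPM in line 1.2. Its groups overlapped in line 1.1, and its change of 0.09 ± 0.04 was not called (edgeR adjusted p = 0.0641). Nolc1 changed by -0.06 ± 0.03, also without a call.

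Among 8 other snoRNP genes, which include assembly factors, 2 rose (25%) and 3 fell (37.5%), against 30.7% and 31.3% of all genes tested. Znhit3, an assembly factor of box C/D particles, had 24.2 and 21.6 CPM with DMSO and 31.3 and 26.5 CPM with JQ1 in line 1.1, and 22.8 and 19.96 against 25.1 and 25.98 CPM in line 1.2. It rose by 0.30 ± 0.07 (edgeR adjusted p = 0.000797).

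Of the 16 small subunit factors, 2 rose (12.5%), 6 fell (37.5%) and 8 had no call, against 30.7% and 31.3% of all genes tested. Their median log2 change was -0.07. Wdr43, a subunit of the complex that binds the nascent precursor and whose promoter is shown above, had 414 and 393 CPM with DMSO and 300.0 and 301 CPM with JQ1 in line 1.1, and 375 and 376 against 284 and 287 CPM in line 1.2. All JQ1 libraries were below all DMSO libraries, with a log2 change of -0.41 ± 0.03 (edgeR adjusted p = 5.47e-11). Imp4, part of the complex with Mpp10 that holds the U3 snoRNA on the precursor, moved up from 154 and 142 to 182 and 183 CPM in line 1.1 and from 140.5 and 143 to 173 and 178 CPM in line 1.2. It was the largest rise among the 50 members in the averaged effect, 0.30 ± 0.04 (edgeR adjusted p = 9.72e-08), again without overlap. Rrp12, a factor of pre-ribosome export, had 113 and 109 CPM with DMSO and 117 and 128 CPM with JQ1 in line 1.1, and 105 and 102 against 128 and 129 CPM in line 1.2, a log2 change of 0.22 ± 0.04 (edgeR adjusted p = 2.53e-05).

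The other small subunit members that fell were Wdr36 by a log2 change of -0.36, Utp20 by -0.34 and Wdr3 by -0.28, all components of the processome that forms on the precursor, the methyltransferase Emg1 by -0.23, and Utp14a by -0.14. In each of these 5 the 4 JQ1 libraries lay below the 4 DMSO libraries. The 8 without a call lay between -0.08 (Wdr75 and the endonuclease Nob1) and 0.06 (Utp15), with Tsr1, Heatr1, Bysl, Utp18 and Nop14 between them. For several of these genes an exon overlaps one of a gene on the opposite strand. The overlap was 847 bases for Wdr3, 473 for Utp14a, 334 for Emg1, 361 for Bysl and 1240 for Tsr1. It was 209 bases for Imp4, 155 for Heatr1 and 144 for Nop14. Outside this group it was 185 bases for Polr1a, 316 for Gtpbp4 and 138 for Pes1, and shorter overlaps in other members are not listed. Whether the counting used strand is not given in the sources used here, so reads in these stretches cannot be told apart. Of 39 other small subunit genes 3 rose (7.69%), 13 fell (33.3%) and 23 had no call, against 30.7% and 31.3% of all genes tested. Ltv1, a factor of late small subunit assembly, went from 94.4 and 93.1 to 56.3 and 59.0 CPM in line 1.1 and from 84.1 and 84.2 to 56.9 and 52.1 CPM in line 1.2, a log2 change of -0.67 ± 0.04 (edgeR adjusted p = 2.58e-12). The helicase Dhx37 rose by 0.39 ± 0.05 (edgeR adjusted p = 1e-07), from 71.0 and 79.9 to 91.4 and 94.6 CPM in line 1.1 and from 70.8 and 66.2 to 90.8 and 100.5 CPM in line 1.2.

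Of the 14 large subunit factors, 4 rose (28.6%), 6 fell (42.9%) and 4 had no call, against 30.7% and 31.3% of all genes tested. Their median log2 change was -0.05. Ppan (chr9:20888175-20892178, plus strand), a factor of early large subunit assembly, had the largest fall of the 50 members in the averaged effect. It stood at 251 and 286 CPM with DMSO and 172 and 161 CPM with JQ1 in line 1.1, and at 253 and 241 against 172 and 175 CPM in line 1.2. The groups were well apart, and the averaged log2 change of -0.60 ± 0.04 (edgeR adjusted p = 3.5e-12) put JQ1 at 0.66 times the DMSO level. A near-identical stretch is also annotated in 1 other gene, Arhgef2, and how reads there were assigned is uncertain. Gnl3, the nucleolar GTPase nucleostemin, had 409 and 365 CPM with DMSO and 291 and 298 CPM with JQ1 in line 1.1, and 383 and 386 against 274 and 285 CPM in line 1.2. It changed by -0.43 ± 0.04 (edgeR adjusted p = 2.28e-10). Its relative Gnl2, a GTPase of late nuclear large subunit assembly, went up from 129 and 125 to 153 and 144 CPM in line 1.1 and from 128 and 122 to 149.7 and 152 CPM in line 1.2. All JQ1 libraries of Gnl2 were above all DMSO libraries, at 0.25 ± 0.04 (edgeR adjusted p = 2.7e-06).

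Wdr12, Bop1 and Pes1, which form a complex needed to process the large subunit RNA, each had a different result. Wdr12 fell, from 202 and 181 to 147 and 142 CPM in line 1.1 and from 176 and 189 to 134 and 139 CPM in line 1.2, with a log2 change of -0.42 ± 0.04 (edgeR adjusted p = 2.35e-09). Transcripts of 6 other annotated genes, 1 of them a pseudogene, share a near-identical stretch with Wdr12, which leaves its count uncertain to that extent. Bop1 rose by 0.14 ± 0.04 (edgeR adjusted p = 0.0013), with 253 and 235 CPM with DMSO and 263 and 254 CPM with JQ1 in line 1.1, and 225 and 214 against 246 and 258 CPM in line 1.2. Pes1, with 295 and 262 against 261 and 263 CPM in line 1.1 and 288 and 272 against 286 and 269 CPM in line 1.2, overlapped in both lines and changed by -0.05 ± 0.04 (edgeR adjusted p = 0.245). Pes1 has 2 near-identical copies in the annotation.

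The other large subunit members that fell were Mrto4 (-0.36), which takes part in building the ribosomal stalk, Nop16 (-0.20), and the RNA methyltransferase Nop2 (-0.12). Rrp1b (0.08) and Nip7 (0.10) were just past the threshold, and each lost its call under 9 of 18 alternatives. Gtpbp4, Rrs1 and Nle1 lay between -0.04 and -0.02 without a call. Of the 3 DEAD-box helicases, Ddx56 (-0.27) and Ddx18 (-0.15) fell. Ddx21, which acts in Pol I transcription and rRNA processing, had no call at 0.01 ± 0.03 (edgeR adjusted p = 0.878), with 1030.0 and 940.1 CPM with DMSO and 962 and 950.0 CPM with JQ1 in line 1.1 and 918 and 915 against 957 and 947 CPM in line 1.2. Mrto4, Ddx18 and Ddx21 also have near-identical pseudogene copies. Of 46 other large subunit genes 10 rose (21.7%), 17 fell (37%) and 19 had no call, against 30.7% and 31.3% of all genes tested. Noc2l changed by -0.55 ± 0.03 (edgeR adjusted p = 1.64e-13), from 460 and 467 to 301 and 304 CPM in line 1.1 and from 469.7 and 455 to 334 and 329.6 CPM in line 1.2. Tex10 changed by -0.49 ± 0.04 (edgeR adjusted p = 5.3e-10), from 106 and 101 to 71.2 and 68.7 CPM in line 1.1 and from 86.6 and 95.1 to 67.6 and 68.5 CPM in line 1.2. Gnl3l, a relative of Gnl3, rose by 0.39 ± 0.04 (edgeR adjusted p = 6.58e-09), from 87.4 and 83.5 to 113 and 115 CPM in line 1.1 and from 82.5 and 85.2 to 105 and 111 CPM in line 1.2. Over all 103 further genes of the pathway, 20 rose (19.4%), 36 fell (35%) and 47 had no call, near the 31.3% of all genes that fell. Their median log2 change was -0.03, and of all genes tested 30.7% rose.

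Some partners in the same complex or family moved apart, and Nop10 had no call where Dkc1 fell. The read counts of such partners were set against each other within each library, which removes the scaling between libraries. The 5 pairs were chosen after their values were seen and are a description. Reads of Nop56 per read of Nop58 were 1.2 to 1.298 in the DMSO libraries and 1.857 to 2.082 in the JQ1 libraries. Nop10 per Dkc1 went from 0.4728 to 0.4955 with DMSO to 0.7012 to 0.7752 with JQ1. Polr1a per Polr1b, the 2 subunits of the catalytic centre, was 1.268 to 1.356 with DMSO and 1.865 to 2 with JQ1. In these 3 pairs the mean log2 change of the ratio was between 0.58 and 0.63. Bop1 per Wdr12 was 1.133 to 1.302 with DMSO and 1.79 to 1.853 with JQ1, a mean log2 change of 0.55. Gnl2 per Gnl3 was 0.3146 to 0.3418 with DMSO and 0.4827 to 0.5454 with JQ1, a change of 0.68. For all 5 pairs every JQ1 library lay above every DMSO library, but the pairs were picked by these values, so this is no further evidence. A ratio of reads depends on the lengths of both genes, so its level is not a ratio of molecules.

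**Figure D4:**
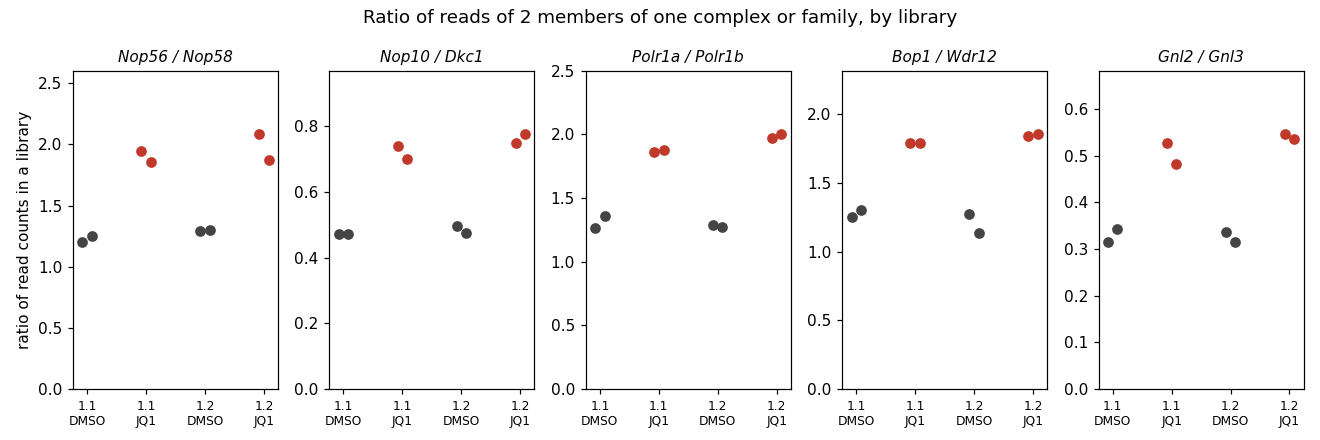
Ratio of the read counts of 2 genes within a library (y axis, from 0, no unit) for 5 pairs from the same complex or family, by line and treatment, DMSO in grey and JQ1 in red, 1 point per library. In each panel the 4 JQ1 points sit above the 4 DMSO points, for Nop56 over Nop58 at 1.857 to 2.082 against 1.2 to 1.298. The pairs were chosen after their values were seen.

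Many snoRNAs are cut from introns of genes that themselves serve the ribosome. In the annotation 8 members hold snoRNA genes within their bounds: Ncl, Nop56, Nop58, Dkc1, Wdr43, Tsr1, Ppan and Gnl3. Of these 1 rose (Nop56), 5 fell and 2 had no call, where 30.7% of all genes tested rose and 31.3% fell. Their median log2 change was -0.37. They include 4 of the 6 largest falls among the members, which describes the same changes again. Genes outside the members that hold snoRNAs were not looked at, and no test was made of this subset. The 42 members without a snoRNA had 10 higher, 15 lower and 17 without a call, with a median of -0.04. Across the 50 members, the averaged change had a Spearman rho of -0.06 with mean level, 0.02 with the span of the gene and -0.10 with its exon length; genes are not independent replicates, and no test was made.

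The second question was whether the lines responded alike. In line 1.1, 7 members rose and 21 fell, against 24.9% and 26.1% of all genes. In line 1.2, 8 rose and 19 fell, against 24.4% and 25% of all genes. In both lines 6 members rose, against 19.5% of all genes, and 19 fell, against 20.7%. The number that rose in line 1.1 depended on single libraries, and the number over all genes also changed when one was left out. The members' median log2 change in line 1.1 was -0.08. It was -0.03 without replicate 1 of its DMSO pair and -0.13 without replicate 2. Without JQ1 replicate 1 and replicate 2 it was -0.09 and -0.05. The changes of the 50 members in the 2 lines, which share no library, had a Pearson r of 0.94 and a Spearman rho of 0.93 across genes, and 42 had the same sign. The 4178 genes of like level gave 0.94 and 0.91, so this likeness was not particular to the members.

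**Figure D5:**
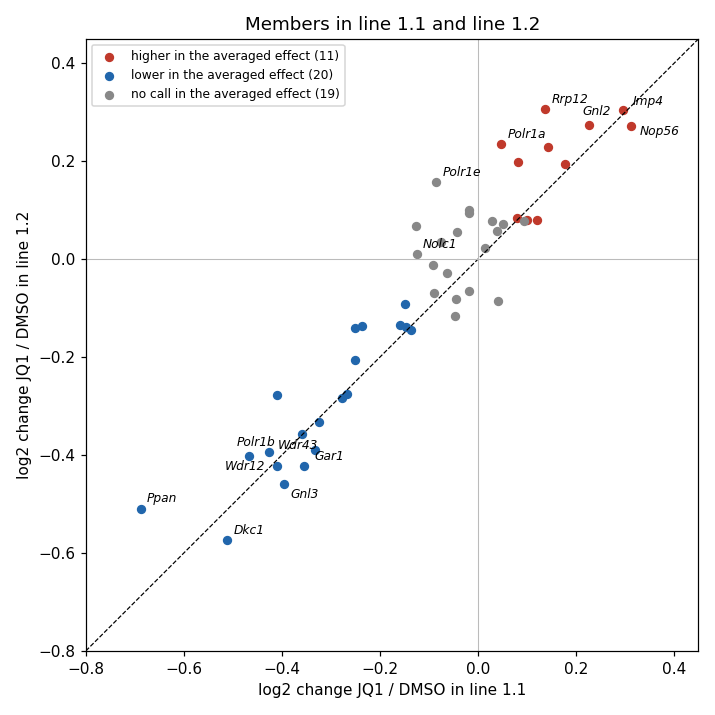
Log2 change after JQ1 in line 1.1 (x axis) against that in line 1.2 (y axis), 1 point per member, coloured by the call of the averaged effect; the dashed line marks equal changes. The called members lie along the line, Ppan further down in line 1.1 (-0.69 against -0.51), Polr1a and Rrp12 further up in line 1.2.

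The difference between the lines' JQ1 effects was tested as an interaction, which called 0 of 50 members and 0.113% of all genes (edgeR adjusted p below the threshold for 14 genes). At an unadjusted p under 0.05 there were 6 members and 1000 genes. The smallest p among the members was that of Polr1a, with a change of 0.05 ± 0.04 in line 1.1 and 0.24 ± 0.04 in line 1.2, a difference of 0.19 ± 0.06 (edgeR adjusted p = 0.435). Without replicate 1 of the line 1.1 DMSO pair 2 members were called, Polr1a among them (edgeR adjusted p = 0.0289), but that fit also called 266 genes higher and 193 lower of 12771 tested, a share close to that of the members. For Polr1e the change was -0.08 ± 0.07 in line 1.1 and 0.16 ± 0.07 in line 1.2, and for Nolc1 -0.13 ± 0.04 and 0.01 ± 0.04 (edgeR adjusted p of the differences 0.569 and 0.584). At this depth and with 2 libraries a group, a difference in response between the lines was not detected for the members.

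The third question was whether the untreated lines differed. In DMSO, 2 members were lower in line 1.2, against 3.17% of all genes, and 0 were higher, against 3.59%. Nolc1 had 764 and 772 CPM in line 1.1 and 675 and 652 CPM in line 1.2, with a log2 difference of -0.21 ± 0.04 (edgeR adjusted p = 0.00231). With JQ1 its values were 699 and 708 CPM in line 1.1 and 669.5 and 667.5 CPM in line 1.2, so the lines lay closer together there. Ncl had 4957 and 4502 CPM in line 1.1 against 4239 and 4255 CPM in line 1.2, a difference of -0.16 ± 0.04 (edgeR adjusted p = 0.0272). The next members in order of p were not called: Gar1 at -0.17 ± 0.05 (edgeR adjusted p = 0.0519), and Utp15, with 129 and 127 CPM in line 1.1 against 116 and 113 CPM in line 1.2, at -0.16 ± 0.05 (edgeR adjusted p = 0.0548). Utp15 with JQ1 stood at 131 and 135 CPM in line 1.1 and 118 and 123 CPM in line 1.2. Of the 50 members 44 had a difference below 0, with a median of -0.07, and that median was -0.08 to -0.06 under the scalings tried. A difference above 0 was seen in 12% of the members, 50.9% of all genes tested and 40.6% of the 4178 genes of like level. The median was 0.0034 over all genes tested and -0.02 over those of like level, so abundant genes as a whole leaned the same way. The members' median depended on the discordant DMSO pair of line 1.1, at -0.02 without its replicate 1 and -0.12 without its replicate 2. Of the 103 other genes of the pathway 12 were lower in line 1.2 and 0 higher. The count of lower members rested on single libraries, and the count over all genes also changed when one was left out. Without replicate 1 or replicate 2 of the line 1.2 DMSO pair the members' median was -0.08 in each case. Over all genes tested it was -0.003 in both of these fits.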

How the data were processed

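RNA sequencing of 8 libraries, 2 in each of 4 groups, was analysed from the deposited table of read counts per gene. The authors counted reads with HTSeq; the submitters' processing notes also name FastQC, cutadapt 1.7, TopHat, Bowtie2 and limma with the builds GRCm38 and mm10, in roles they do not give. The strand setting is not given in the sources used here. The 5 HTSeq summary lines (no-feature reads 12.33 to 13.12% with DMSO and 14 to 14.4% with JQ1, ambiguous reads 1.537 to 1.674% of all) were left out of library sizes. Gene names came from GENCODE M21, which held 42548 of the 43629 identifiers. Counts were filtered (filterByExpr, minimum count 10, minimum total 15), scaled by TMM and fitted in edgeR 4.0.16 (R 4.3.3) with 1 mean per group, 4 residual degrees of freedom and the quasi-likelihood F test; p-values were adjusted over 12413 genes by Benjamini-Hochberg. SE is the log2 change divided by the root of F. The fit was tried on simulated counts in which few genes changed. How it behaves under a change as wide as that after JQ1 was not tested. Near-identical copies are other annotated transcripts matching at 95% or more over at least 200 bases (BLAST 2.17.0). Levels are CPM on TMM-scaled totals of the tested genes' reads. Alternatives used DESeq2 1.42.0, limma 3.58.1, other scalings and filters, a replicate block, Gm42418 as a covariate, stricter thresholds and left-out libraries. The members, their roles and all gene lists were chosen with earlier results of these data known. Library values are given for all Pol I members, the 6 largest rises and falls, the 4 highest levels per kb, the smallest p of the interaction (3) and of the line difference (4), the 3 largest rises and falls of other pathway genes, and partners of these.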

Additional observations from a re-analysis of the deposited data

How the results depend on the processing

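Of the 31 members called in the averaged effect, all kept their sign in 18 alternatives at the same threshold, and 18 of the 20 that fell and 8 of the 11 that rose kept their call in each of them; the exceptions were Npm1 with library totals, Rrp1b and Nip7 under 9 alternatives each, and Utp14a and Ddx18 with the Gm42418 level as a covariate. Polr1e, Rrp9, Nop14, Utp18 and Ddx21, which had no call, changed sign with the scaling. With the Gm42418 covariate the members' median log2 change was 0.01821 averaged, 0.05651 in line 1.2 and 0.1425 for the interaction. In that fit 7 members fell in line 1.2, where the calls over all genes also went from 3031 higher and 3105 lower to 1383 and 1525. The Gm42418 level was itself higher with JQ1 in line 1.2, so the fit cannot separate it from the JQ1 effect there. Members that rose in line 1.1 were 3 with upper-quartile scaling, library totals, an adjusted p of 0.01 or only the 4 libraries compared, and 4 with DESeq2. Over all genes these fits called 2226 to 2909 higher in line 1.1, against 3096 as reported. Members lower in line 1.2 in DMSO were 4 with DESeq2 size factors, no filter or at least 5 CPM in 2 libraries, 7 with Gm42418, and 1 at an adjusted p of 0.01 or with only the 4 libraries compared. Over all genes the lower calls were 371 to 443 in the fits with 4 members and 362 with Gm42418. They were 159 and 182 in the fits with 1 member, against 394 as reported. Tested against a fold change of 1.5, the count of members was 0 in every comparison and direction. Averaged over both lines, that test called 586 higher and 872 lower of all 12413 genes. Leaving out 1 library gave 9 to 14 members higher and 20 to 25 lower averaged, 3 to 11 higher in line 1.1, 0 to 2 higher for the interaction (the fit with 2 called 266 of 12771 genes higher) and 0 to 21 lower for the lines in DMSO (the fit with 21 called 589 of 12793 genes lower); where this left 1 library in a group, that library was assumed to vary like the others. Apart from the changes shown by fewer samples or a stricter threshold, the cause was not tested. With a replicate block the averaged counts stayed at 11 higher and 20 lower, and the interaction calls over all genes went from 10 higher and 4 lower to 20 and 6. Same-numbered libraries did not deviate together (correlations of -0.05915 to 0.05276 over 9382 genes). With 2 libraries per group, this cannot show whether they share a culture, day or batch, and the labels do not say. Of the single-gene results, 450 of those at the same threshold kept direction and side of it, 9 passed it newly and 6 lost it.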
